A study of Mus musculus with 18 samples.

Results

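The comparison described here sets gene expression of T23 cultures with fibroblasts against that of T23 cultures without them, under androgen receptor blockade. T23 is a mouse line described by the submitters as adenocarcinoma cells and studied here in the setting of prostate cancer. Of the 18 RNA-seq libraries of the series, 6 were used: the 3 of T23 cells with fibroblasts and enzalutamide (the co-culture) were set against the 3 of T23 cells with enzalutamide and no fibroblasts (enzalutamide alone). The libraries were assigned to the groups by their labels, and all genes were compared. The choice of members and gene lists was made with earlier results of these data known. The 2 groups share T23 cells and enzalutamide, an antagonist of the androgen receptor, and differ by label in the fibroblasts. They also differ in part in the numbering of their titles, as given below. T23 cells alone and T23 cells with fibroblasts, both without enzalutamide, are given beside them, and the remaining groups (Sparc-deficient fibroblasts, and fibroblasts with enzalutamide and isoliquiritigenin) entered only the estimate of the spread. The series title concerns loss of SPARC from the stroma after castration and neuroendocrine differentiation of prostate cancer. The sample descriptions call the fibroblasts of the enzalutamide co-culture human and those of the co-culture without drug wild type. Titles of both carry the name FIBROB6, so the species of the fibroblasts with enzalutamide is not settled by the labels. Dose, duration, the format of the co-culture and whether replicates were separate cultures are not given in the sources used here, so the p-values measure only the spread between these libraries.

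As background, type I interferon signals through a complex of STAT proteins and IRF9 to a set of antiviral genes whose promoters carry the interferon-stimulated response element. Under low oxygen, hypoxia-inducible factor drives genes of glucose uptake, glycolysis and oxygen sensing through promoters with a hypoxia response element. Retinoic acid, made from vitamin A by retinaldehyde dehydrogenases, is cleared by CYP26 enzymes. Fibroblasts in a tumour produce matrix, cytokines and growth factors, and androgen receptor antagonists such as enzalutamide are used against prostate cancer.

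Promoters of 6 genes are shown, of 3 interferon-response genes that were called higher in the co-culture and 3 hypoxia and glycolysis genes that were called lower. The sequences are the 150 bases before the RefSeq transcript start on GRCm38.p6, written 5′ to 3′ on the strand of the gene. For Ifit1, Isg15 and Rsad2, capitals mark matches on either strand to a core of the interferon-stimulated response element, the half-site GAAA repeated after any 2 bases, where matches may overlap.
Ifit1 promoter, chr19:34640739-34640888, plus strand: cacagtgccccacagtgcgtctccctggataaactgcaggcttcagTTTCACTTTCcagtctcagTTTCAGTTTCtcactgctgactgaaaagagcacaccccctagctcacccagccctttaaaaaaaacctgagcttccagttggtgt
Isg15 promoter, chr4:156200819-156200968, minus strand: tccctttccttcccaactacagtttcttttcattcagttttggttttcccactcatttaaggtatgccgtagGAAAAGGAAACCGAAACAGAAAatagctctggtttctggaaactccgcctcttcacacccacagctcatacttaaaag
Rsad2 promoter, chr12:26456453-26456602, minus strand: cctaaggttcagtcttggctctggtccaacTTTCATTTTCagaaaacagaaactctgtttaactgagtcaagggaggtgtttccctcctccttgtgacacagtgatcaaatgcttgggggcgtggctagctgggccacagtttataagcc
For Bnip3, Hk2 and Slc2a1, capitals mark matches on either strand to ACGTG, the core of the hypoxia response element. ACGTG is contained in the palindrome CACGTG, which counts on each strand.
Bnip3 promoter, chr7:138909507-138909656, minus strand: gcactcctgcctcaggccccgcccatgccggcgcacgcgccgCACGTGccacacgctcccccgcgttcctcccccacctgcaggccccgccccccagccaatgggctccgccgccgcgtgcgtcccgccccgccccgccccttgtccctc
Hk2 promoter, chr6:82774455-82774604, minus strand: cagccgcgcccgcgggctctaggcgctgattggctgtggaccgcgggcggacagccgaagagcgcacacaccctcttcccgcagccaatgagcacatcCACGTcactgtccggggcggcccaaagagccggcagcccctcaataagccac
Slc2a1 promoter, chr4:119108595-119108744, plus strand: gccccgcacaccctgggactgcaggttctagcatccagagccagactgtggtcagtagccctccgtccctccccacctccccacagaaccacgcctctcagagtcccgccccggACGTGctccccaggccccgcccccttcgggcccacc
Searching 250 bases before the start, the interferon core was present in 52.9% of the 17 interferon list genes with a RefSeq promoter, in 3.28% of the 10131 tested genes with one, and in 3.46% of all 27025 genes with one. ACGTG was present in 63.6% of the 22 hypoxia and glycolysis list genes with a promoter, in 25.2% of the tested genes and in 18.5% of all genes. A match is a run of letters and was not tested as a binding site.

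The 6 libraries held 16.1 to 22.4 M counts and 18123 to 19625 detected genes. Replicate 2 of enzalutamide alone stood apart: 26.4% of its counts (95% Wilson interval 26.4 to 26.5%, counting error only) fell on CT010467.1, an annotated ribosomal RNA gene at chr17:39846353-39848827, against 0.102% and 0.138% in the other enzalutamide libraries and 0.0391 to 0.0661% in the co-culture. Without that gene the library held 11.8 M counts. Results are therefore given from a fit of all 18 libraries and from one of 17 libraries that leaves this library out; a value with no number of libraries beside it comes from the former. The index ending each title restarts between replicates 1 and 2 of the co-culture, so replicates 2 and 3 belong to another numbering series than the 3 enzalutamide libraries and replicate 1. What the series stands for is not stated. Differences fitted with it as a term ("within the series") set only 1 co-culture library, replicate 1, against enzalutamide alone. The other libraries add to the filter, the scaling and the spread but not to these differences. The epithelial identity in the label had little transcript support: 18 luminal epithelial markers summed to 21.3 to 24.5 normalised CPM (counts per M counts, scaled by trimmed mean of M-values) with enzalutamide alone and 20.04 to 24.0 in the co-culture, with Cldn3 and Esrp1 at 0 counts in all 6 libraries. Fibroblast markers (20 genes) summed to 2774 to 2888 with enzalutamide alone, where no fibroblasts had been added, and to 2914 to 3013 in the co-culture. The 2 ranges did not overlap, and the exact two-sided permutation p was 0.1, the smallest that 3 against 3 allows. The share of fibroblasts in the sequenced RNA was not measured. In these bulk libraries a change in the number of cells of a type and a change of RNA per cell cannot be told apart.

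With fibroblasts present, 11 of 22 tested interferon-response genes, Ranbp3l, the retinoic acid hydroxylase Cyp26b1, prostatic acid phosphatase Acpp and the smooth muscle actin gene Acta2 were higher in the fit of 18 libraries, and 7 of 23 hypoxia and glycolysis genes, the cholesterol exporter Abca1, the matrix Gla protein gene Mgp and Dock8 were lower. Most differences were small. In the fit of 18 libraries, 283 of 13600 genes tested (2.08%) differed at an adjusted p under 0.05 (edgeR quasi-likelihood test, Benjamini-Hochberg), 155 higher (1.14%) and 128 lower (0.941%) in the co-culture. Their median absolute log2 fold change was 0.39, and 37 differed by 2-fold or more. Leaving out the library rich in ribosomal RNA raised the count to 391 of 13886 genes (2.82%), 222 higher (1.6%) and 169 lower (1.22%), of which 28 differed by 2-fold or more. The 2 fits shared 221 genes, all in the same direction, which is 78.1% of the first set and 56.5% of the second, while 62 were called in the first fit only and 170 in the second only. Single libraries weighed on these counts. With 18 libraries, 83 genes were called without co-culture replicate 2 and 148 without enzalutamide replicate 1, and with 17 libraries, 117, 124 and 129 were called without co-culture replicate 2, enzalutamide replicate 1 and enzalutamide replicate 3. With numbering series as a term 11 genes were called with 18 libraries and 44 with 17, of which 10 and 40 were among those called without the term.

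**Figure D1:**
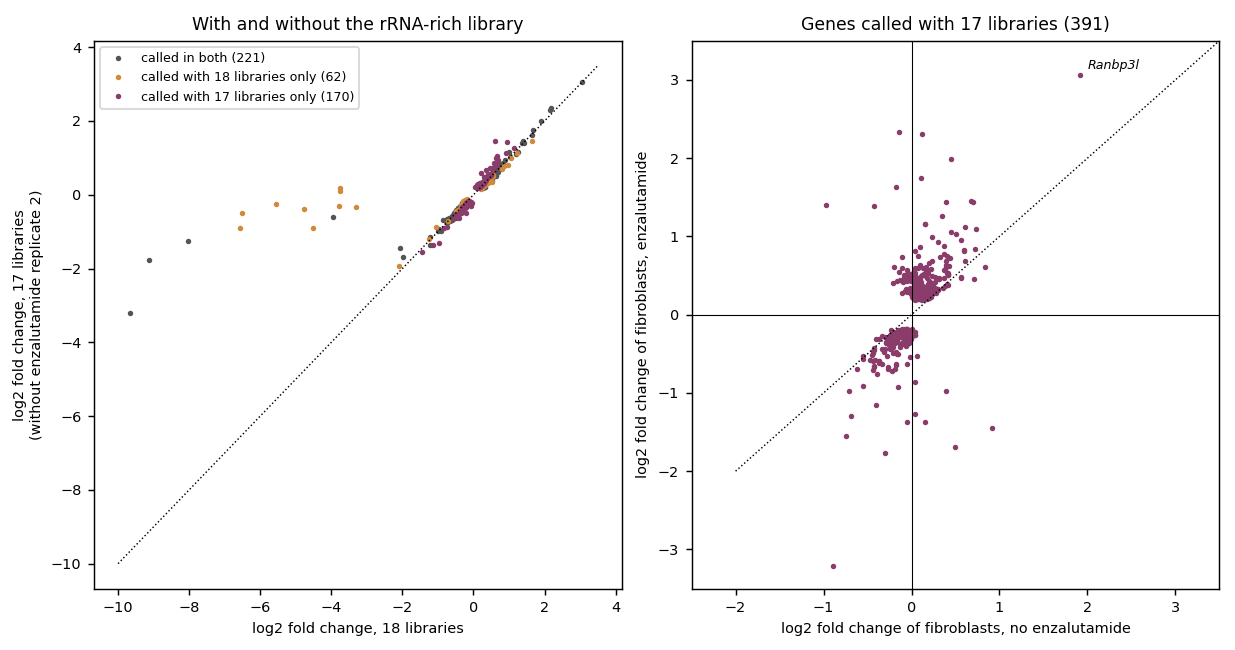
Log2 fold changes of single genes, with each point 1 gene. Left, the co-culture over enzalutamide alone fitted with 18 libraries (x axis) and with 17 (y axis), with 221 genes called in both fits, 62 only with 18 libraries and 170 only with 17. Right, for the 391 genes called with 17 libraries, the fibroblast difference without enzalutamide (x axis) against that with enzalutamide (y axis), where 346 had the same sign.

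Interferon-response genes were called in one direction only. Of 22 tested members, 11 were higher and 0 lower with 18 libraries, with a median log2 fold change of 0.40 against -0.00 over all genes tested, and 12 were higher and 0 lower with 17 libraries, with a median of 0.37. The share of all genes tested called higher was 1.14% with 18 libraries and 1.6% with 17. Oas2, an oligoadenylate synthetase that senses double-stranded RNA (chr5:120730333-120749853, minus strand), stood at 11.0, 9.52 and 8.54 CPM with enzalutamide alone and at 15.9, 15.8 and 17.1 CPM in the co-culture. The 3 co-culture libraries were all above the 3 others. Ranges of both groups did not overlap, in either direction, for 14.9% of all genes tested in the 18-library fit. In the 17-library fit, where only enzalutamide replicates 1 and 3 stood against the co-culture, it was 29.2%. Genes named for a large fold change were taken only if their ranges did not overlap, so the separation adds no evidence for them. Oas2 was among the genes named in this way. Its log2 fold change was 0.74 ± 0.11 (SE; adjusted p = 0.000637), and 0.73 ± 0.12 with 17 libraries (adjusted p = 0.000861), where the call ended without enzalutamide replicate 3 (adjusted p = 0.058).

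Among the antiviral effectors, Ifit1, which binds foreign 5′ ends of RNA, was at 106, 105 and 90.7 CPM with enzalutamide alone and at 134, 163 and 145 CPM with fibroblasts. Rsad2 (viperin, an enzyme that makes a chain-terminating nucleotide) was at 22.3, 20.04 and 21.7 CPM and at 32.5, 30.7 and 28.1 CPM. Isg15, a ubiquitin-like modifier, was at 54.7, 42.8 and 41.8 CPM and at 67.2, 70.3 and 69.3 CPM. The ranges of the 2 groups did not overlap for any of these 3 genes. Log2 fold changes were 0.55 ± 0.08 for Ifit1 (adjusted p = 0.000637), 0.50 ± 0.08 for Rsad2 (adjusted p = 0.000885) and 0.56 ± 0.11 for Isg15 (adjusted p = 0.00804). With 17 libraries they were 0.58, 0.46 and 0.51, all still called. Ifit3 (0.51), Ifi44 (0.54), Oasl2 (0.50), Oas1a (0.46), Xaf1 (0.44), the guanylate-binding protein gene Gbp3 (0.40) and the signal transducer Stat2 (0.29) were also higher with 18 libraries, at 0.59, 0.60, 0.51, 0.44, 0.46, 0.46 and 0.27 with 17, and the RNA sensor Ifih1 (0.33) joined them with 17. Reads of Oas1a can be shared with close paralogs and its value is uncertain. Other members did not pass the test with 18 libraries: Irf7 differed by 0.30, Mx1 by 0.47 (adjusted p = 0.342) and Irf1 by -0.02. None of 15 antigen presentation genes was called in either fit, where 2.08% and 2.82% of all genes tested were. Of these 15 genes, 13 had a positive log2 fold change with 18 libraries and 12 with 17. The number called depended on single libraries: 6 with 18 libraries without co-culture replicate 2, and with 17 libraries 3 without enzalutamide replicate 3 and 8 without co-culture replicate 2. With numbering series as a term the medians were 0.39 and 0.40, but 1 and 2 members were called, Rsad2 among them (adjusted p = 0.0342 and 0.0155).

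**Figure D2:**
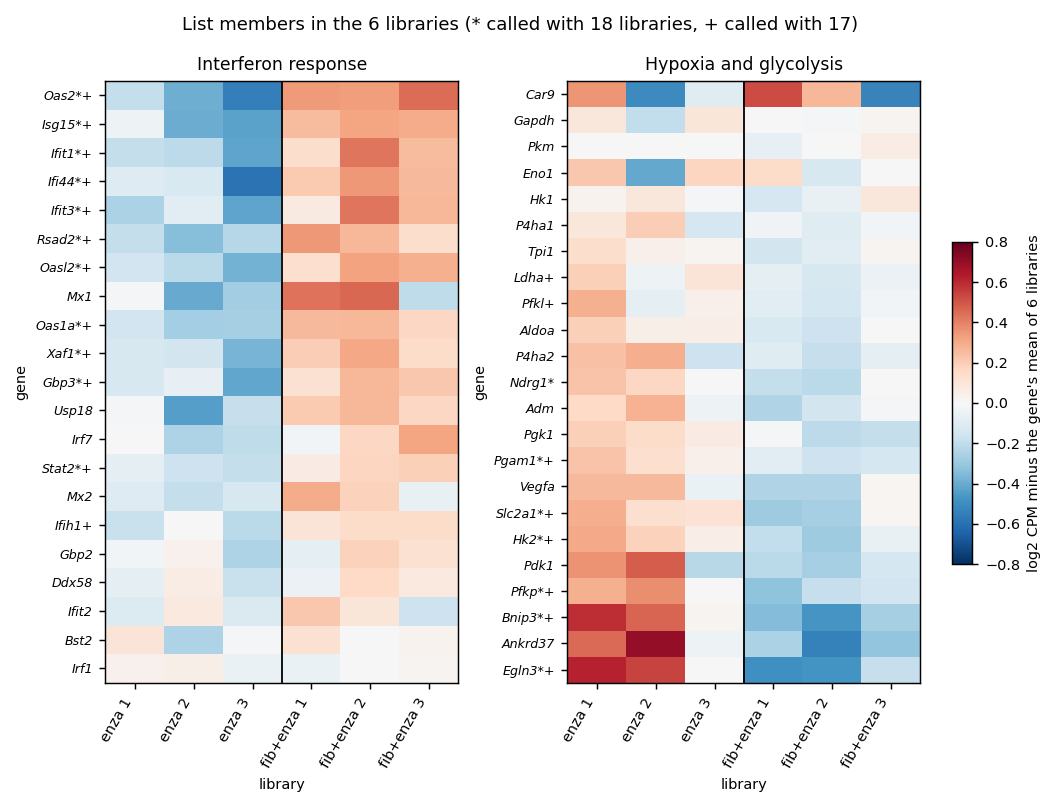
Expression of 21 interferon-response genes and the 23 hypoxia and glycolysis genes in the 6 libraries, as log2 normalised CPM minus the mean of the gene over these libraries. Most interferon genes are higher in the 3 co-culture libraries and most hypoxia genes lower; * marks genes called with 18 libraries and + genes called with 17.

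Among genes of the low oxygen response and glycolysis, a minority was called, all lower. Of 23 tested members 7 were lower and 0 higher with 18 libraries (median log2 fold change -0.26), and 8 were lower and 0 higher with 17 (median -0.25). The share of all genes tested called lower was 0.941% with 18 libraries and 1.22% with 17. Bnip3, a mitophagy receptor and classical target of hypoxia-inducible factor (chr7:138890836-138909519, minus strand), was at 60.02, 55.1 and 40.4 CPM with enzalutamide alone and at 31.3, 28.7 and 33.2 CPM in the co-culture. Egln3, one of the prolyl hydroxylases that mark hypoxia-inducible factor for degradation, was at 197, 186 and 128 CPM and at 91.1, 91.9 and 113 CPM. Enzalutamide replicate 3 had the lowest values of its group for both genes and still lay above every co-culture library. The log2 fold changes were -0.73 ± 0.12 for Bnip3 (adjusted p = 0.00177) and -0.79 ± 0.16 for Egln3 (adjusted p = 0.00656), and -0.70 and -0.72 with 17 libraries. With 17 libraries both calls ended without enzalutamide replicate 1 (-0.38 for each gene, adjusted p = 0.189 and 0.335) and under robust dispersion (adjusted p = 0.0522 and 0.13). Egln3 was also not called with 18 libraries under robust dispersion (adjusted p = 0.0789) or with 17 by the DESeq2 test (adjusted p = 0.0733).

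For glucose uptake and its first steps, the transporter gene Slc2a1 was at 287, 256 and 254 CPM with enzalutamide alone and at 193, 196 and 237 CPM with fibroblasts, a log2 fold change of -0.35 (adjusted p = 0.00734; -0.38 with 17 libraries). Hexokinase Hk2 was at 140, 129 and 118 CPM and at 99.2, 93.3 and 109 CPM, a log2 fold change of -0.36 ± 0.07 (adjusted p = 0.00727), also -0.36 with 17 libraries. Groups did not overlap for either gene, although co-culture replicate 3 came nearest to the enzalutamide libraries. Phosphofructokinase Pfkp (-0.44, and -0.38 with 17 libraries), phosphoglycerate mutase Pgam1 (-0.27 and -0.28) and Ndrg1 (-0.26) were also lower with 18 libraries, and lactate dehydrogenase Ldha (-0.23) and Pfkl (-0.25) were called with 17 libraries only. Ndrg1 was not called with 17 (adjusted p = 0.0526). Vegfa differed by -0.31 and Pdk1 by -0.43 with 18 libraries, each with an adjusted p of 0.0827, and by -0.26 and -0.31 with 17 (adjusted p = 0.132 and 0.19). Outside the list, the thiol oxidase gene Ero1l was at 138, 156 and 92.1 CPM and at 72.0, 60.9 and 80.4 CPM (log2 fold change -0.84 ± 0.15, adjusted p = 0.00211), and the vascular peptide gene Apln at 45.8, 37.5 and 33.9 CPM and at 23.7, 23.6 and 27.8 CPM (-0.65 ± 0.10, adjusted p = 0.000885). Both were also called with 17 libraries, at -0.70 and -0.67, but not when enzalutamide replicate 1 was left out of that fit (-0.38 and -0.44, adjusted p = 0.255 and 0.0603). These counts rested on few libraries: with 18 libraries 4 members were called without co-culture replicate 1, 1 without co-culture replicate 2, 1 without enzalutamide replicate 1 and 12 without enzalutamide replicate 3. With 17 libraries 2 were called without co-culture replicate 2 and 0 without enzalutamide replicate 1 (median -0.13). With numbering series as a term 0 and 1 were called at medians of -0.23 and -0.25.

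Ranbp3l, which encodes a nuclear export factor for receptor-regulated SMAD proteins (chr15:8967949-9067335, plus strand), had the largest fold change among the genes called in both fits that were higher with fibroblasts. It was at 1.65, 2.09 and 2.14 CPM with enzalutamide alone and at 17.2, 19.7 and 10.9 CPM in the co-culture, so the lowest co-culture library was above all others. The log2 fold change was 3.04 ± 0.42 (8.22-fold, adjusted p = 0.00027), 3.07 ± 0.44 with 17 libraries and 3.15 within the series. Without enzalutamide it was at 2.58, 6.37 and 1.48 CPM in T23 cells alone and at 12.8, 16.0 and 10.3 CPM with fibroblasts (log2 fold change 1.92, adjusted p = 0.0155).

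Of 9 tested genes of retinoid metabolism and signalling, 3 were higher and 0 lower with 18 libraries (median log2 fold change 0.41), and 2 were higher with 17 (median 0.43). Ranbp3l had been placed in this list with earlier results known and is left out of these counts, whereas the plot of list medians includes it. Over all genes tested, 1.14% were called higher with 18 libraries and 1.6% with 17. Cyp26b1, which hydroxylates retinoic acid for clearance (chr6:84571414-84593908, minus strand), was at 11.9, 13.1 and 11.7 CPM with enzalutamide alone and at 19.9, 22.6 and 19.6 CPM in the co-culture. Its log2 fold change was 0.77 ± 0.10 (adjusted p = 0.000241), 0.81 with 17 libraries and 0.72 within the series. Dhrs3, which reduces retinaldehyde back to retinol, was at 18.4, 18.6 and 15.0 CPM and at 21.1, 23.7 and 23.9 CPM, a log2 fold change of 0.41 (adjusted p = 0.0181) and 0.45 with 17 libraries (adjusted p = 0.0103). It was not called without co-culture replicate 2, co-culture replicate 3 or enzalutamide replicate 3 (adjusted p up to 0.111 with 18 libraries). The retinaldehyde dehydrogenase Aldh1a1 was at 5.66, 5.26 and 5.43 CPM and at 7.71, 7.95 and 6.79 CPM, called with 18 libraries (0.45, adjusted p = 0.035) and not with 17 (adjusted p = 0.0658).

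**Figure D3:**
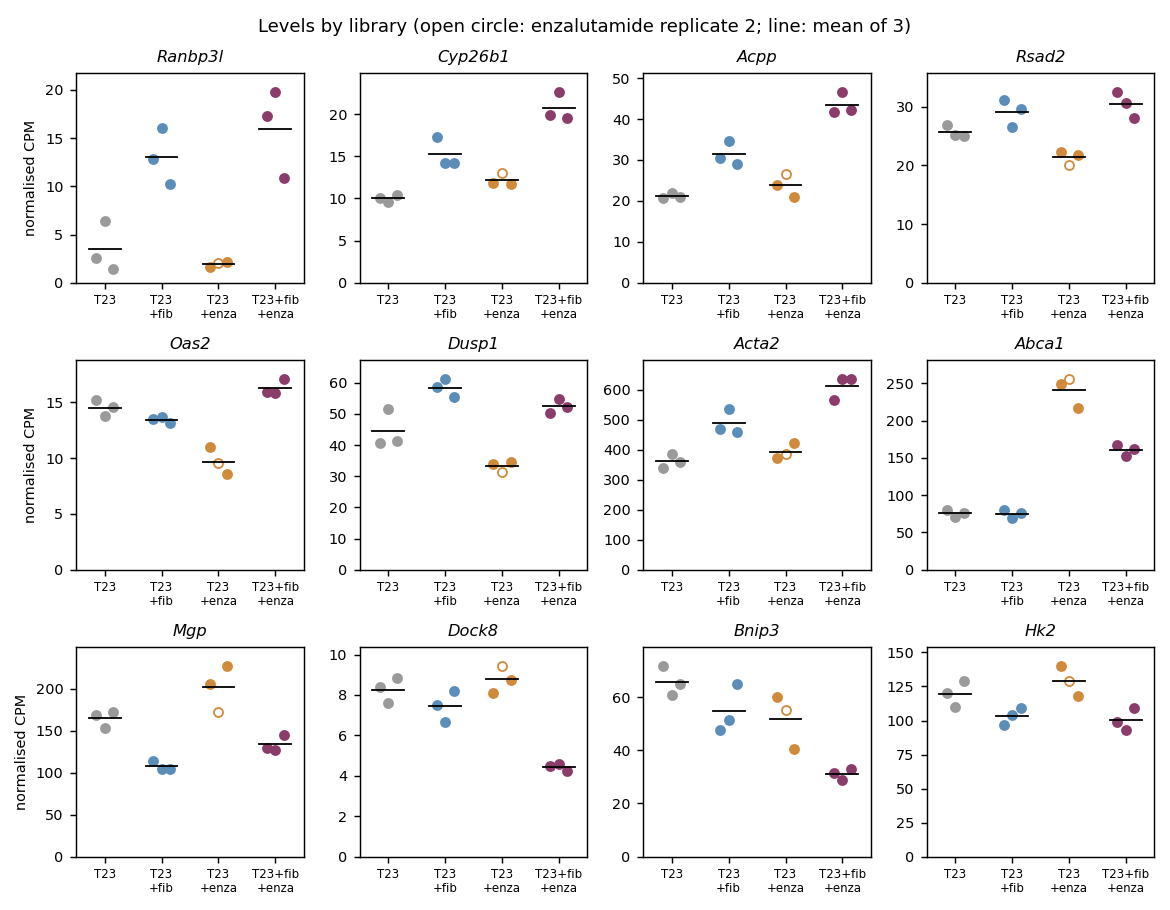
Normalised CPM of 12 genes in the 3 libraries of each of 4 groups (T23 cells alone, with fibroblasts, with enzalutamide, with both), with 1 point per library and a line at the mean of 3; the open circle is the library rich in ribosomal RNA. In the enzalutamide pair of groups the points do not overlap for any of the 12 genes, most of which were chosen among genes without overlap, and Abca1 is higher in both enzalutamide groups than in both groups without the drug.

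Abca1, the transporter that exports cholesterol to apolipoproteins (chr4:53030787-53159895, minus strand), was at 249, 256 and 216 CPM with enzalutamide alone and at 167, 153 and 162 CPM in the co-culture. Without the drug it was at 80.3, 70.0 and 76.1 CPM in T23 cells alone and at 79.6, 68.8 and 75.5 CPM with fibroblasts. Co-culture libraries were lower among those with the drug, and the pair of groups without it overlapped: the log2 fold change was -0.58 ± 0.07 (adjusted p = 0.000171), -0.54 ± 0.07 with 17 libraries (adjusted p = 5.99e-05) and -0.02 without the drug (18 libraries). The test of that difference between differences gave -0.56 ± 0.10 (adjusted p = 0.0496), and -0.52 with 17 libraries (adjusted p = 0.0506). Of 15 tested targets of the liver X receptors and lipid genes, 3 were lower and 0 higher with 18 libraries, the others being the desaturase gene Scd1 (-0.32) and the LDL receptor ubiquitin ligase gene Mylip (-0.29). With 17 libraries 2 were lower, Scd1 at -0.23, and Mylip was not called (-0.26, adjusted p = 0.0767). Over all genes tested, 0.941% were called lower with 18 libraries and 1.22% with 17. The list medians were -0.10 and -0.09, and with numbering series as a term or without co-culture replicate 1 only 1 member was called in each fit.

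The response to fibroblasts was tested for a difference with and without enzalutamide in all genes. By description the fibroblasts were human with the drug and wild type without it, and numbering series differed in part. An effect of the drug cannot be told apart from these differences. With 18 libraries 3 of 13600 genes (0.0221%) were called, 2 with a positive interaction (0.0147%) and 1 with a negative one (0.00735%), and 755 had an unadjusted p under 0.05; with 17 libraries 0 were called by the edgeR test, with 868 at an unadjusted p under 0.05. Besides Abca1 these were Oas2 and Chac1. Oas2 was at 15.2, 13.7 and 14.6 CPM in T23 cells alone and at 13.5, 13.7 and 13.1 CPM with fibroblasts, a log2 fold change of -0.11 against 0.74 under the drug, and the interaction was 0.85 ± 0.15 (adjusted p = 0.0496; 0.0506 with 17 libraries). Chac1, a glutathione-degrading enzyme induced by amino acid stress, was at 11.2, 9.16 and 10.5 CPM with enzalutamide alone and at 12.5, 11.2 and 11.9 CPM in the co-culture, which did not pass the test (0.19, adjusted p = 0.402). Without the drug it fell from 13.1, 13.0 and 11.9 CPM to 8.54, 8.80 and 7.84 CPM (-0.59, adjusted p = 0.0042), and its interaction was 0.78 ± 0.14 (adjusted p = 0.0496; 0.0571 with 17 libraries). These 3 calls ended without the library rich in ribosomal RNA and in several other settings given further on.

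Side by side, the fibroblast differences with and without the drug, which share no library, mostly had the same sign. The fibroblasts of the 2 settings carry different descriptions, as given above. Of the 283 genes called under enzalutamide with 18 libraries, 246 (86.9%) had the same sign without it, against 60.6% of all genes tested. Without enzalutamide 70 of 13600 genes were called (0.515%), of which 34 were among the 283, with 0 called in opposite directions. With 17 libraries 346 of 391 (88.5%) had the same sign, against 62.3% of all genes, and 63 were called in both. The 283 genes had a median absolute log2 fold change of 0.39 with the drug and 0.19 without it, but they had been chosen by the first of these values. The interferon list had a median of 0.01 without the drug with 0 members called, and the hypoxia and glycolysis list had -0.04; for single members apart from Oas2 the difference between the 2 settings was not called.

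Genes of the contractile and matrix response were split. Acta2, smooth muscle α-actin and a marker of myofibroblasts, was at 371, 386 and 421 CPM with enzalutamide alone and at 564, 635 and 635 CPM in the co-culture. All co-culture libraries were higher, by a log2 fold change of 0.64 ± 0.09 (adjusted p = 0.000269), 0.62 with 17 libraries and 0.43 without the drug. Of 20 tested genes of the TGF-β and YAP response, 2 were higher and 5 lower with 18 libraries, and 2 higher and 6 lower with 17, with medians of -0.04 and -0.08. The myosin light chain gene Myl9 was the other higher one (0.56, and 0.52 with 17 libraries). Lower were the matricellular YAP target Ccn2 (-0.32 in both fits), Tgfbi (-0.38, and -0.35 with 17 libraries), the inhibitory SMAD gene Smad7 (-0.44 and -0.42), the TGF-β binding protein gene Ltbp2 (-0.50) and the collagen cross-linking enzyme gene Lox (-0.28), which was not called with 17 libraries (-0.25, adjusted p = 0.065). Without co-culture replicate 2 or without enzalutamide replicate 1, 1 member was higher and 0 lower with 18 libraries, and within the series 0 were called. With 17 libraries it was 1 higher and 1 lower without co-culture replicate 2, 1 and 2 without enzalutamide replicate 1, 1 and 3 without enzalutamide replicate 3, and 1 and 1 within the series. Ltbp2 with 17 libraries (-0.62, adjusted p = 0.0011) kept its call without each library in turn. Of 14 tested BMP and Id genes 0 were called with 18 libraries, and Id1 (-0.58, adjusted p = 0.00329) and Id3 (-0.49, adjusted p = 0.00212), inhibitors of bHLH factors, were lower with 17. Both lost the call without enzalutamide replicate 1. Over all genes tested, 1.14% were called higher and 0.941% lower with 18 libraries, and 1.6% and 1.22% with 17.

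In the extracellular matrix, Mgp, an inhibitor of calcification, was at 205, 173 and 227 CPM with enzalutamide alone and at 129, 128 and 144 CPM in the co-culture. Its log2 fold change was -0.60 (adjusted p = 0.00142), -0.70 with 17 libraries (adjusted p = 5.99e-05) and -0.62 without the drug. Dpt, dermatopontin, a matrix protein of dermal and other fibroblasts, was at 21.8, 25.7 and 29.0 CPM and at 49.3, 42.1 and 39.4 CPM. The log2 fold change was 0.78 ± 0.10 with 18 libraries and 0.78 ± 0.11 with 17. Of 26 tested matrix glycoprotein and proteoglycan genes 3 were higher, namely Fbln7 (0.70, and 0.61 with 17 libraries), the basement membrane gene Nid2 (0.39 and 0.33) and Thbs2 (0.51 and 0.36), and 3 lower, namely Mgp, Fbln2 (-0.24 and -0.28) and the microfibril gene Fbn2 (-0.40 and -0.44). With 17 libraries 5 were higher, adding decorin, Dcn (0.29), and Ogn (0.44), and 3 lower. Shares over all genes tested were 1.14% higher and 0.941% lower with 18 libraries, and 1.6% and 1.22% with 17. Without co-culture replicate 2, and also without enzalutamide replicate 1, the counts were 2 higher and 1 lower with 18 libraries; with 17 they were 2 and 2 without the former and 3 and 2 without the latter, and within the series 0 and 0 with 18 libraries and 0 and 1 with 17.

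Of 18 tested NF-κB, cytokine and chemokine genes, 3 were higher and 1 lower with 18 libraries, and 2 were higher with 17. For this and the next lists, the shares over all genes were 1.14% higher and 0.941% lower with 18 libraries. With 17 libraries these shares were 1.6% and 1.22%. Ccl2, which recruits monocytes, was at 169, 176 and 176 CPM with enzalutamide alone and at 233, 231 and 235 CPM in the co-culture. Replicates of both groups lay close together, and the log2 fold change was 0.42 (adjusted p = 0.0021), 0.43 with 17 libraries. Its neighbour in the chemokine family, Ccl7, was higher by 0.54 (adjusted p = 0.0179; 0.57 with 17 libraries). Cxcl10, an interferon-inducible chemokine gene, was higher by 0.41 (adjusted p = 0.0468) and was not called with 17 libraries (0.31, adjusted p = 0.101). Vcam1, an adhesion molecule gene, was the member called lower with 18 libraries (-0.18), and was not called with 17 (-0.16, adjusted p = 0.0714). Without co-culture replicate 2 and without enzalutamide replicate 1, 1 member was called in either fit, without co-culture replicate 1 also 1 with 18 libraries, and within the series 0 were. Among 22 immediate early genes, the MAP kinase phosphatase gene Dusp1 was at 34.0, 31.4 and 34.7 CPM and at 50.3, 54.7 and 52.2 CPM (log2 fold change 0.64 ± 0.08, adjusted p = 0.000171; 0.61 with 17 libraries), whereas the orphan nuclear receptor gene Nr4a1 (-0.53, adjusted p = 0.00645; -0.57 with 17 libraries) and Ier3 (-0.35 and -0.36) were lower. Of 18 genes of the amino acid stress response driven by ATF4, 0 were higher and 3 lower with 18 libraries, asparagine synthetase Asns (-0.26 in both fits), the cystine transporter gene Slc7a11 (-0.55, and -0.50 with 17 libraries) and Vldlr (-0.52 and -0.47), and 4 were lower with 17. Without co-culture replicate 2 the latter count was 1, and within the series it was 0 in both fits.

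Further genes with large differences lay outside these lists. Acpp, prostatic acid phosphatase (chr9:104288251-104337748, minus strand), was at 23.9, 26.7 and 20.9 CPM with enzalutamide alone and at 41.8, 46.5 and 42.2 CPM in the co-culture. Its log2 fold change was 0.88 ± 0.11 (adjusted p = 0.000171) and 0.95 with 17 libraries (adjusted p = 3.18e-05), and 0.57 without the drug. Dock8, an exchange factor for CDC42 best known from leukocytes, was at 8.11, 9.43 and 8.76 CPM and at 4.48, 4.60 and 4.22 CPM, a log2 fold change of -0.97 ± 0.13 (adjusted p = 0.00027), -0.93 with 17 libraries and -0.16 without the drug. The 15 macrophage and leukocyte markers summed to 17.6 to 18.1 CPM with enzalutamide alone and 16.6 to 18.4 in the co-culture, with Adgre1, C1qa, C1qb, C1qc and Tyrobp at 0 counts in all 6 libraries. Ifi205, an interferon-inducible gene with close paralogs whose counts are uncertain, was at 11.1, 13.3 and 11.4 CPM and at 19.1, 21.2 and 19.9 CPM (0.76 ± 0.11, adjusted p = 0.000294; 0.82 with 17 libraries).

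Also higher in both fits were the secreted protein gene Srpx2 (1.19), extracellular superoxide dismutase Sod3 (1.04), the fibrinogen-like gene Fgl2 (0.84), the sodium channel gene Scn7a (0.84), the neuropeptide Y receptor gene Npy1r (0.74) and Mpeg1 (0.72), which encodes a pore-forming protein. With 17 libraries Srpx2, Sod3 and Fgl2 lost their calls without enzalutamide replicate 1 (adjusted p = 0.107, 0.0665 and 0.113). Omd, osteomodulin, was called with 17 libraries only (0.82, adjusted p = 0.0159), and the mitochondrial tRNA gene mt-Tc with 18 only (0.80, adjusted p = 0.033). Also lower in both fits were the arrestin-domain gene Arrdc4 (-0.74), the non-coding transcript 4930447F24Rik (-0.73), the adenylate cyclase gene Adcy1 (-0.58) and the spliceosome core gene Snrpf (-1.01, adjusted p = 0.0187). Snrpf stood at 14.5, 14.4 and 11.7 CPM against 8.08, 4.30 and 7.66 CPM and lost its call without co-culture replicate 2 or enzalutamide replicate 1 (adjusted p up to 0.153). The brain cytoplasmic RNA gene Bc1 was at 34.8, 103 and 40.5 CPM and at 26.3, 6.05 and 8.53 CPM, so replicate 1 of the co-culture lay much closer to the enzalutamide libraries than replicates 2 and 3 did. Its log2 fold change was -2.06, -1.45 with 17 libraries (adjusted p = 0.0159) and -0.52 within the series with 17 libraries (adjusted p = 0.554). The pseudogene Rps24-ps3, whose reads can come from its parent gene, was at 1.07, 1.72 and 1.16 CPM and at 1.45, 9.20 and 6.496 CPM, so among these 6 libraries co-culture replicates 2 and 3 were high. The group with isoliquiritigenin, whose libraries carry the same numbering series as those replicates, had 9.00 ± 2.39 CPM (SD, n = 3).

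The library rich in ribosomal RNA set the lower end of the 18-library results. Rn7sk, a non-coding RNA of transcription control, was at 0.936, 572 and 1.29 CPM with enzalutamide alone and at 0.374, 0.300 and 0.291 CPM in the co-culture, where only replicate 2 of enzalutamide alone was high. Its log2 fold change was -9.14 with 18 libraries and -1.77 with 17 (adjusted p = 0.0271). The 5.8S ribosomal RNA gene n-R5-8s1 went from -9.67 to -3.22, the miRNA gene Mir6236 from -5.57 to -0.26, the histone gene Hist1h1e, whose transcripts mostly lack poly(A) tails, from -4.51 to -0.89, and CT010467.1 from -8.03 to -1.27 (adjusted p = 8.77e-05). The mitochondrial ribosomal RNA genes changed sign, mt-Rnr1 from -3.75 to 0.18 and mt-Rnr2 from -3.77 to 0.09. CT010467.1, Rn7sk and n-R5-8s1 remained lower in the co-culture in the fit of 17 libraries. The part of ribosomal RNA content in other changes was not tested beyond leaving out that library. Of 79 cytosolic ribosomal protein genes, a list added after seeing the data, 0 were higher and 6 lower with 18 libraries (median -0.08) and 0 higher and 15 lower with 17 (median -0.13). Over all genes tested, 0.941% and 1.22% were called lower in these fits. Rps20 was lower by a log2 fold change of -0.32 with 17 libraries (adjusted p = 0.000459) and was not called with 18 (-0.21, adjusted p = 0.122). Without enzalutamide replicate 3 the count with 17 libraries was 3, without enzalutamide replicate 1 it was 8, without co-culture replicate 2 it was 6, and within the series it was 1. With 18 libraries 1 was called without co-culture replicate 2, 3 without co-culture replicate 3 and 2 without enzalutamide replicate 1.

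Genes named in the question of the series, or known as readouts of it, mostly did not pass the test. Of 10 tested members of the list of androgen receptor targets, 1 was higher and 2 were lower with 18 libraries, and 1 was higher and 0 lower with 17. Shares over all genes tested were 1.14% higher and 0.941% lower with 18 libraries, and 1.6% and 1.22% with 17. Pmepa1 was higher by 0.35 (0.36 with 17 libraries, adjusted p = 0.00101). Ndrg1 (-0.26) and Acsl3 (-0.29) were lower with 18 libraries and not called with 17 (-0.25 and -0.16, adjusted p = 0.0526 and 0.151). Sparc, the matricellular protein named in the title, differed by 0.05 in both fits (adjusted p = 0.693, and 0.646 with 17 libraries). The endoplasmic reticulum chaperone gene Hspa5 differed by -0.04 (adjusted p = 0.759), and by -0.02 with 17 libraries. Of 26 neuroendocrine markers 10 passed the filter on low counts, and 1 was called with 18 libraries and 0 with 17. That one was the neurofilament gene Nefl, at 0.936, 0.816 and 1.07 CPM and at 2.06, 2.15 and 1.84 CPM (1.07 ± 0.26, adjusted p = 0.0294; 1.00 with 17 libraries, adjusted p = 0.0536). It also lost its call without co-culture replicate 1 or 2 or enzalutamide replicate 1. Without the drug the Nefl difference was 1.88 (adjusted p = 0.00847). Ncam1 differed by -0.24 (adjusted p = 0.0872) and Eno2 by 0.05 (adjusted p = 0.864), and with 17 libraries by -0.15 (adjusted p = 0.261) and -0.00. Chga, Insm1, Neurod1 and Pcsk2 were not counted in any of the 6 libraries; 3 counts, the limit a count of 0 allows, equal 0.133 to 0.272 CPM there. Syp was at 0.0891, 0 and 0.089 CPM and at 0, 0 and 0.145 CPM, and the cytokine gene Il6 at 0.312, 0.181 and 0.267 CPM and at 0.327, 0.05 and 0.097 CPM, both too low to be tested.

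**Figure D4:**
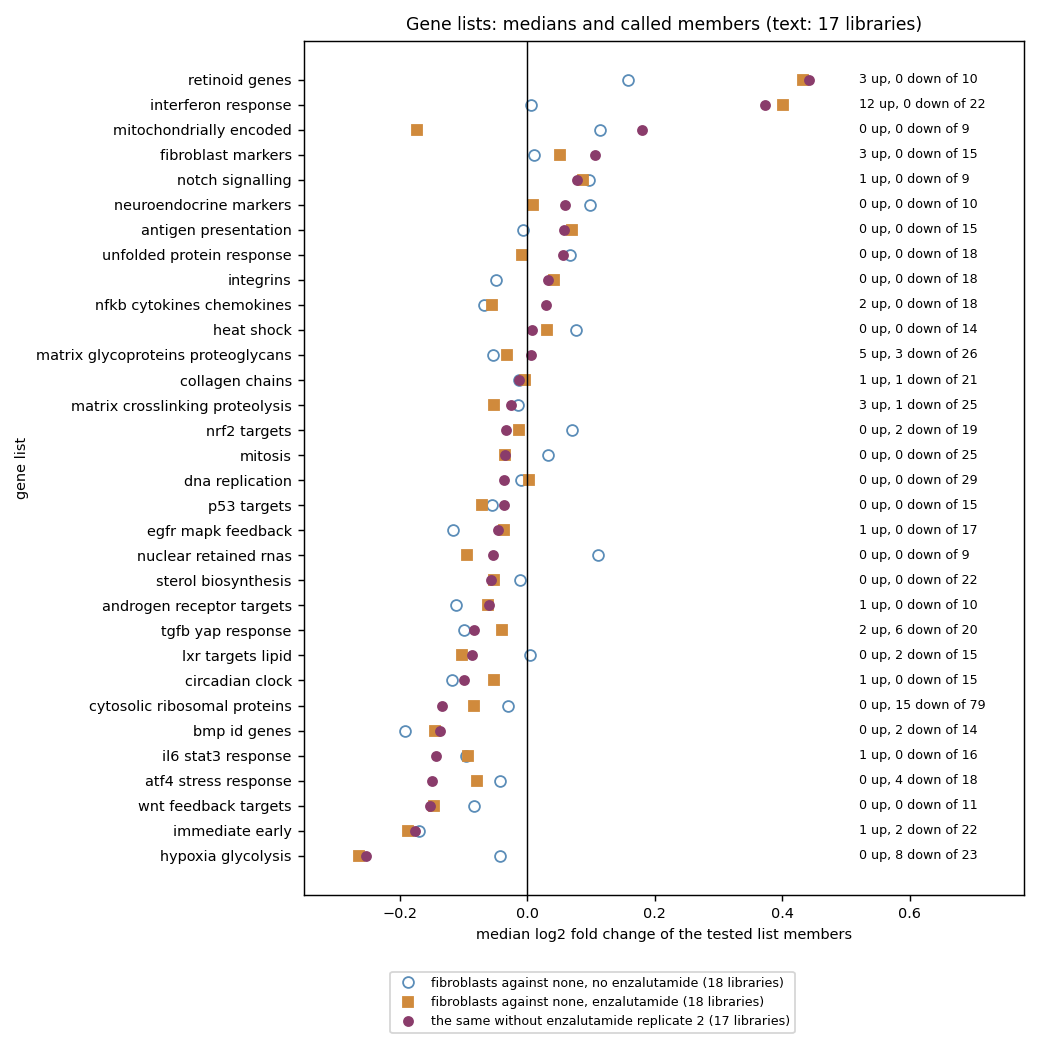
Median log2 fold change of each of 32 gene lists, with the 18-library fit as squares, the 17-library fit as filled circles and the comparison without enzalutamide as open circles; the numbers at the right are members called higher and lower with 17 libraries. The interferon list lies to the right (median 0.37) and the hypoxia and glycolysis list to the left (median -0.25).

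In both fits 0 genes were called of 25 mitosis, 29 DNA replication, 18 unfolded protein response, 14 heat shock, 22 sterol synthesis, 18 integrin, 15 p53 and 11 Wnt genes. Of all genes tested, 2.08% were called with 18 libraries and 2.82% with 17, so 0 calls in lists of this size carry little information. Marker sums of other cell types lay below that of the fibroblast markers. The 10 basal epithelial markers summed to 19.8 to 23.5 CPM with enzalutamide alone and 17.5 to 19.5 in the co-culture, with Krt5 at 0 in all 6 libraries. The 12 endothelial markers summed to 88.3 to 97.7 and 86.7 to 99.5 (Tie1, Emcn and Cldn5 at 0), the 13 myogenic markers to 5.52 to 9.07 and 3.78 to 4.11 (Myod1, Myog, Myf5, Myh8 and Ckm at 0), and the 10 adipocyte markers to 13.6 to 14.3 and 11.7 to 12.02 (Plin1, Cfd and Cidec at 0). Most of the endothelial sum came from Flt1 (mean 79.9 CPM). Of 4 tested myogenic markers 1 was called, Tnnt2, lower by -1.22 (edgeR adjusted p = 0.00142) and by -1.15 with 17 libraries (adjusted p = 0.0022). In the latter fit its call ended without enzalutamide replicate 1. The groups did not overlap for the basal, myogenic and adipocyte sums, each with an exact two-sided permutation p of 0.1, and their part in the gene differences was not tested.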

How the data were processed

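Members and gene lists were chosen with earlier results of these data known. Per the labels, 500 ng of total RNA was captured by poly(A), made into stranded (dUTP) libraries and run on a NextSeq 550. The authors deposited raw counts per gene, one table per library, with no normalisation. Per the submitters' processing notes, the tools were STAR 2.6.1d and featureCounts 2.0 with GRCm38, after bcl2fastq 2.20.0.422 and cutadapt 2.9, with FastQC 0.11.9 and DESeq2 also named; annotation release, strand setting and treatment of reads matching several places are not given in the sources used here.

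Genes were filtered with filterByExpr (minimum count 10), scaled by TMM and fitted with the edgeR 4.0.16 quasi-likelihood model (limma 3.58.1, R 4.3.3), 1 mean per group over 6 groups, leaving 12 residual degrees of freedom with 18 libraries (biological coefficient of variation 7.03%) and 11 with 17 (5.04%). P-values were adjusted by Benjamini-Hochberg over all genes of a comparison and called under 0.05. The fits were run on simulated counts with equal gene means in all libraries, apart from changes placed in the co-culture. That simulation held no library rich in ribosomal RNA and no effect of numbering series, so it cannot speak to either. Symbols and gene coordinates are those of GENCODE on GRCm38, and promoters are those of RefSeq on GRCm38.p6. Named by rule were Eno2, Chga, Ncam1, Syp, Il6, Sparc and Hspa5, up to 12 called genes per direction and fit with the largest fold change, at least 5 CPM and no overlap, up to 5 called interaction genes per direction, and up to 3 called members per list; other list members were named after their values were seen. A few items are not reported here. Same-numbered libraries of the 2 groups correlated at 0.034, 0.096 and 0.075, and each matched its own number best. These values do not settle whether the numbers mark pairs, and the main fits took none. Alternatives comprised DESeq2 1.42.0 (size factors, test), filters, fewer groups, a replicate block, numbering series and leaving out each library; voom with quality weights, the ribosomal protein list and the interferon motif were added after seeing the data.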

Additional observations from a re-analysis of the deposited data

Results flagged for a closer look

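The fibroblast difference itself differed between cultures with and without enzalutamide for 3 genes, by the interaction test of edgeR with 18 libraries. Fibroblast descriptions and in part numbering series differed between these cultures too, so an effect of the drug cannot be told apart from them. For Abca1, which exports cholesterol, the interaction was -0.56 on the log2 scale, with a fibroblast difference of -0.58 with the drug and -0.02 without it. For Oas2, an antiviral oligoadenylate synthetase, it was 0.85, from differences of 0.74 and -0.11. For Chac1, which degrades glutathione, it was 0.78, from differences of 0.19 and -0.59. The adjusted p was 0.0496 for each, just under the threshold, and with the rRNA-rich library left out it was 0.0506, 0.0506 and 0.0571.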

How the results depend on the processing

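Counts of called genes moved with the setting, and so did some fold changes. Of 1207 list medians under alternatives, 203 moved by more than the spread between libraries of a group. With 18 libraries (283 called, 155 higher and 128 lower), the DESeq2 test called 454 (245 and 209), no filter on low counts 541 (271 and 270), a fit of only the 2 groups 56 (39 and 17), numbering series as a term 11 (10 and 1), and voom with quality weights, added after seeing the data, 1415 (747 and 668). With 17 libraries (391), only the 2 groups gave 246 (147 and 99), numbering series 44 (25 and 19), and voom 575 with 260 lower. With the replicate number as a block, 234 were called with 18 libraries and 273 with 17 (105 lower), and 0 for the interaction; each library of these groups matched its own number best, as a hint from the data only. The interaction (3 genes, 2 and 1) gave 0 with DESeq2 size factors, the stricter filter, only the groups, the block and numbering series, 13 with the DESeq2 test (9 and 4), 99 without filter (44 and 55) and 33 with voom (26 and 7). Leaving out each library gave 83 to 419 with 18 libraries (51 to 222 higher, 32 to 231 lower), 117 to 457 with 17 (51 to 283, 43 to 184) and 0 to 12 for the interaction (0 to 7, 0 to 9). Why the counts moved was not tested.

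Signs turned for a few values. Leaving out each library, the 18-library log2 fold changes ran from -4.30 to 0.18 for mt-Rnr1, -4.32 to 0.0893 for mt-Rnr2, -0.014 to 0.162 for Eno2 and -0.285 to 0.0256 for Rpl18 and the 17-library ones from -0.147 to 0.154 for Eno2 and -0.0721 to 0.0287 for Hspa5. With numbering series as a term Sparc was -0.0276 and Hspa5 0.0102, and with 17 libraries Sparc was -0.0221, Hspa5 0.0326 and Eno2 0.0471. With voom Hspa5 was 0.0101 and Eno2 -0.121, and the interaction of Eno2 -0.0723. With 17 libraries Eno2 was 0.0149 under the replicate block. Of 2919 values of named genes under alternatives, 2386 kept direction and side of the threshold, 456 lost the call, 59 gained it and 18 turned. Genes below the filter on low counts were not tested, so depth limits what can be said of them.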

Other observations

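A few genes outside the interferon list are given as single values; they were picked because they were called, and genes of their kind that were not called were not counted. Rtp4, a chaperone-like interferon-stimulated gene, was at 52.8, 55.7 and 48.8 CPM with enzalutamide alone and at 72.1, 87.5 and 71.2 CPM with fibroblasts, a log2 fold change of 0.56 ± 0.07 (edgeR adjusted p = 0.000242) and 0.07 without the drug. The immunity-related GTPase genes Iigp1 (0.54), Irgm1 (0.40) and Igtp (0.50), the nucleic acid sensor Zbp1 (0.58) and the nucleotide kinase Cmpk2 (0.56) were called as well, with values of 0.08 to 0.14 without the drug. Close paralogs make counts of these GTPases uncertain.

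With 18 libraries 7 of the 283 called genes kept their call under every alternative tried: Abca1, Acpp, Cyp26b1, Dpt, Dusp1, Ranbp3l and Rsad2. With 17 libraries 20 of 391 did, adding Acta2, Afap1l2, Angptl7, Ano1, Dock8, Hspa4l, Ifi205, Iigp1, Inmt, Ltbp2, Mgp, Rps20 and Rtp4. The interferon core, GAAA repeated after any 2 bases, was found in 18.8% of the 160 genes called higher with 17 libraries that have a RefSeq promoter. It was found in 1.67% of the 120 called lower and in 3.28% of tested genes. ACGTG was found in 14.4% of those called higher and 28.3% of those called lower, against 25.2% of tested genes. Genes called higher include called interferon list members, those called lower include called hypoxia and glycolysis members, and the interferon motif was added after seeing the data.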
